A study of Homo sapiens with 8 samples.

Results

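Type I interferon-stimulated genes were followed in HaCaT keratinocytes, a spontaneously immortalized line of human epidermal cells, after an siRNA against the transcription factor ETV4. The members were 35 gene symbols listed by name, with earlier results of these data known, and all 35 were found among the 34415 symbols of the deposited count table. Of these, 34 had enough counts to be tested, and MX2, with at most 5 counts in any library, did not. The siRNA targeted ETV4 in 4 cultures (siETV4), and the other 4 received a negative control siRNA (siNC). All 8 cultures had spent 96 h in medium with 35 mM glucose, were transfected for 48 h, and came from passages 21 to 33 of this 1 line; the labels call them independent biological replicates. Cultures at the basal 5.5 mM glucose, untransfected cultures and cultures given interferon were not analysed here, so each value compares one siRNA with another within high glucose.

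Type I interferons bind a receptor whose kinases phosphorylate STAT2. With IRF9 it forms part of the complex ISGF3, which enters the nucleus and binds the interferon-stimulated response element in the promoters of target genes. The targets include proteins that bind or degrade viral RNA, block fusion or budding of virions, or attach the ubiquitin-like protein ISG15 to other proteins. Keratinocytes express part of this programme without infection, and many of its genes also respond to interferon-gamma, to type III interferons or directly to IRF3.

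Totals were 35057643 to 41657753 counts per library, and 1 CPM (counts scaled to library total and TMM factor) stood for 40.1 counts at the mean depth. ETV4 had 1.83 to 3.10 CPM in the siETV4 libraries and 19.8 to 32.0 CPM in the siNC libraries, so the targeted mRNA was lower in every siETV4 library. Keratinocyte markers were abundant in both groups, with KRT14 at 465 FPKM in siETV4 and 462 FPKM in siNC, and of the 12 tested KRT17 rose (272 FPKM in siETV4 and 136 FPKM in siNC, edgeR adjusted p 0.00636). KRT6A was separate in the other direction, at 54.7 FPKM in siETV4 and 67.4 FPKM in siNC, without passing (edgeR adjusted p 0.181). Of 10 leukocyte markers, 6 had no count in any library, among them PTPRC, which encodes CD45, and CLEC4C, a marker of plasmacytoid dendritic cells. The 10 leukocyte markers summed to 22.1 to 24.5 CPM in siETV4 and 16.5 to 24.6 CPM in siNC, most of it from CD68, which is also expressed outside leukocytes; their part in the results was not tested. How far a library lay from the 8-library mean went with transcript GC content. Across genes, which share these libraries, Spearman's rho was -0.64, 0.20, -0.57 and 0.02 in siETV4 replicates 1 to 4. For siNC it was 0.55, 0.52, 0.63 and, in replicate 4, -0.60, and this last library therefore stood apart from its group. Values without that library are given for the genes whose groups overlap through it. In those values the groups also differ in this trend, so the siRNA and the trend cannot be told apart.

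The response element is short enough to show. Promoters were taken from RefSeq (GRCh38.p14, mostly upstream sequence that reaches a short way past each start), which held 29 of the 35 genes; IFIT2, MX2, OAS2, OASL, USP18 and TRIM22 were not among them. The core of the element was searched on both strands as GAAA, then any 2 bases, then GAAA, and 20 of the 29 genes had at least 1 match. Counted by promoter, since a gene can have several starts, 25 of 41 promoters of these genes matched (61.0%), against 1255 of all 35116 promoters (3.57%). The longer form, GGAAA, any 2 bases and GAAACT, whose matches are a subset of those of the core, was found for 9 of the 29 genes. By promoter it was found in 12 of the 41 of these genes (29.3%), against 0.134% of all promoters. The windows below lie upstream of a start and are written along the gene's strand, with matches to the core in capitals. On the opposite strand the core reads TTTC, any 2 bases, TTTC. For IFI27, MX1, RSAD2, DDX60 and PARP9 that start is not the outermost of the gene, and the window lies within the gene's span. The promoters at the outermost starts of RSAD2 and PARP9 had 0 matches, and that of MX1 had none upstream of the start. They are shown for the 3 genes that passed the test below and for 1 gene of most groups by role, and IFIT1 and ISG15 were added after their values were seen because their matches lie side by side or overlap.
IFI27 (chr14:94110618-94110660, + strand): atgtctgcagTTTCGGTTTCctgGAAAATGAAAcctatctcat
BST2 (chr19:17405735-17405770, - strand): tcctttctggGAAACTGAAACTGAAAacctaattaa
IFI6 (chr1:27672266-27672317, - strand): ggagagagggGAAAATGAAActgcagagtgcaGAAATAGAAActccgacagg
IFIT1 (chr10:89392497-89392539, + strand): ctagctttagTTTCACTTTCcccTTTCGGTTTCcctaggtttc
IFIT5 (chr10:89414539-89414567, + strand): ttacgtttagTTTCGATTTCttaagtttc
ISG15 (chr1:1013374-1013409, + strand): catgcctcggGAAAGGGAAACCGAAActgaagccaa
HERC5 (chr4:88457035-88457064, + strand): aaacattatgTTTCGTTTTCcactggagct
OAS3 (chr12:112938452-112938473, + strand): agccgggcggGAAAACGAAAcc
MX1 (chr21:41431844-41431873, + strand): ggtcactctgTTTCTCTTTCcgtgaataaa
RSAD2 (chr2:6877622-6877651, + strand): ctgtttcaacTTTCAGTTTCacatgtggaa
DDX60 (chr4:168318786-168318815, - strand): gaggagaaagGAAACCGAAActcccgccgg
PARP9 (chr3:122564322-122564351, - strand): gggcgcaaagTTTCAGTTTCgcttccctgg
IFI44L (chr1:78620365-78620394, + strand): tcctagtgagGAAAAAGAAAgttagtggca
A match is a description of letters and not evidence of binding. The genes above went separate ways below: IFI27, BST2 and IFI6 rose with siETV4, while ISG15, OAS3 and MX1 had log2 fold changes near or below 0. The 20 tested genes with a match had a median log2 fold change of 0.46 and the 9 with a promoter entry but no match 0.41. IRF9, CMPK2 and HERC6 were among the genes without a match in their windows.

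The genes spanned a wide range of levels before any comparison. In the deposited FPKM, which scale counts by gene length and library total and so allow levels of different genes to be compared, LGALS3BP, a secreted glycoprotein that binds galectins, was the most abundant at 221 ± 15.7 FPKM in siETV4 and 204 ± 12.8 FPKM in siNC (SD, n = 4 each). PLSCR1, ISG15, IFI35 and OAS3 came next, at 31.8 to 52.5 FPKM in siETV4 and 33.5 to 45.9 FPKM in siNC. At the other end MX1, ISG20, XAF1, RSAD2, HERC5, IFI44L and MX2 were under 0.5 FPKM in both groups. In the siNC order the means ± SD of neighbours overlapped except below LGALS3BP, OAS3, OAS1, USP18, OAS2, RSAD2 and HERC5. IFI27 was 25th of the 35 in siNC and 19th in siETV4. Of the other genes that passed the test below, IFI6 was 12th in siNC and 10th in siETV4, and BST2 26th in siNC and 24th in siETV4.

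**Figure D1:**
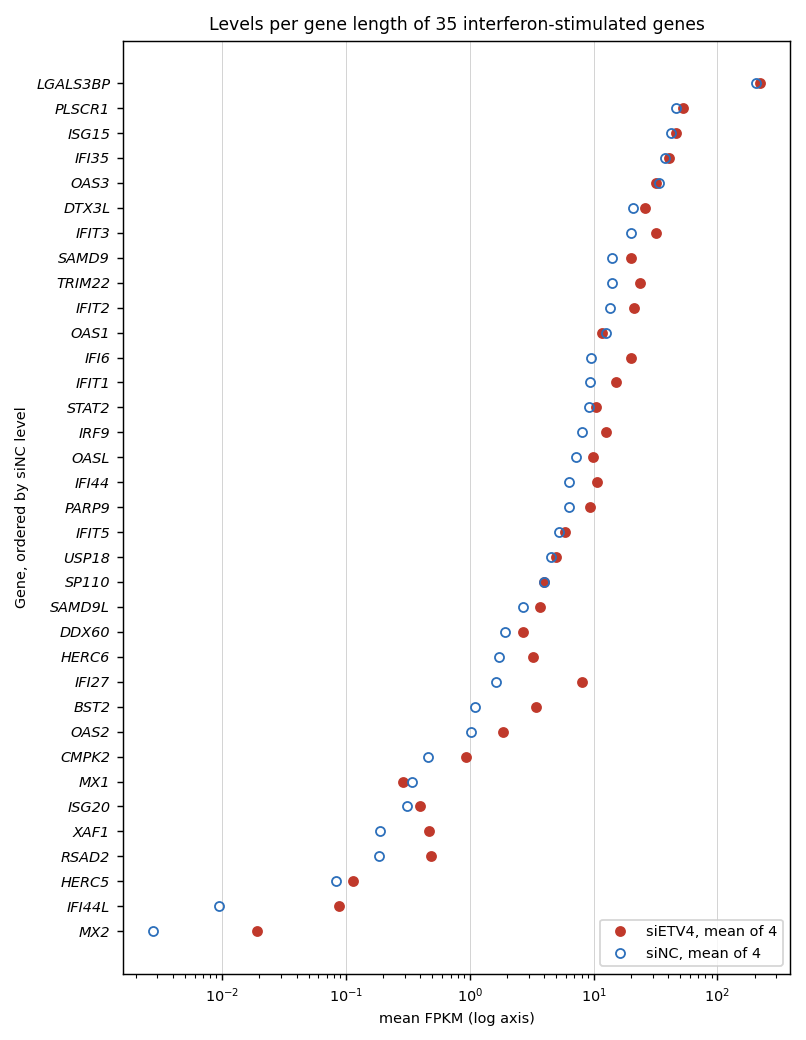
Mean FPKM (log axis) of the 35 genes in siETV4 (filled) and siNC (open), 4 libraries each, ordered from top to bottom by the siNC mean. LGALS3BP lies far above the rest at 221 and 204 FPKM, and the widest gaps between the filled and open points are at IFI27, BST2, IFI44L and MX2, the last of these with at most 5 counts in a library.

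Of the 34 tested genes, 3 rose with siETV4 and 0 fell at an adjusted p under 0.05 (edgeR's quasi-likelihood test, Benjamini-Hochberg adjustment over all 13572 genes tested). Over all genes tested, 0.118% were called higher. The other 31 did not pass, although 30 of the 34 had a positive log2 fold change (siETV4 minus siNC), against 48.4% of all genes tested. The median log2 fold change was 0.46 for these genes and -0.01 for all genes tested. With all 8 libraries the log2 fold change also went with GC content, at Spearman's rho -0.55 over all genes with a value. Under 45% GC, a boundary chosen after the values were seen, the median was 0.51 for 17 of these genes and 0.18 for all such genes. At 45% or more it was 0.29 for the other 17 and -0.10 for all such genes. The 13 mitochondrially encoded genes, a measure of RNA quality, had a median of -0.22 with 0 above 0 and 0 past the threshold by edgeR or DESeq2 (1 lower by edgeR at an unadjusted p under 0.05). They took up 3.4 to 4.5% of the counts of a siETV4 library and 4.0 to 5.0% of those of a siNC library, and the part of RNA quality in the results was not tested. At an unadjusted p under 0.05 by edgeR, 17 of the 34 were higher and 0 lower, beside 5.8% of all genes higher and 6.79% lower. Under 45% GC, 9 of the 17 were higher, and 560 of 4795 over all genes. At 45% or more, 8 of the 17 were higher, and 206 of 7970 over all genes. A log2 fold change of at least 0.5 was reached by 16 of the 34 and by 4.62% of all genes. Among the 34, IFI44L met the minimum count for testing through its siETV4 libraries alone, so its place in these counts is no support. Libraries of whole cultures cannot tell more expressing cells from more RNA per cell.

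**Figure D2:**
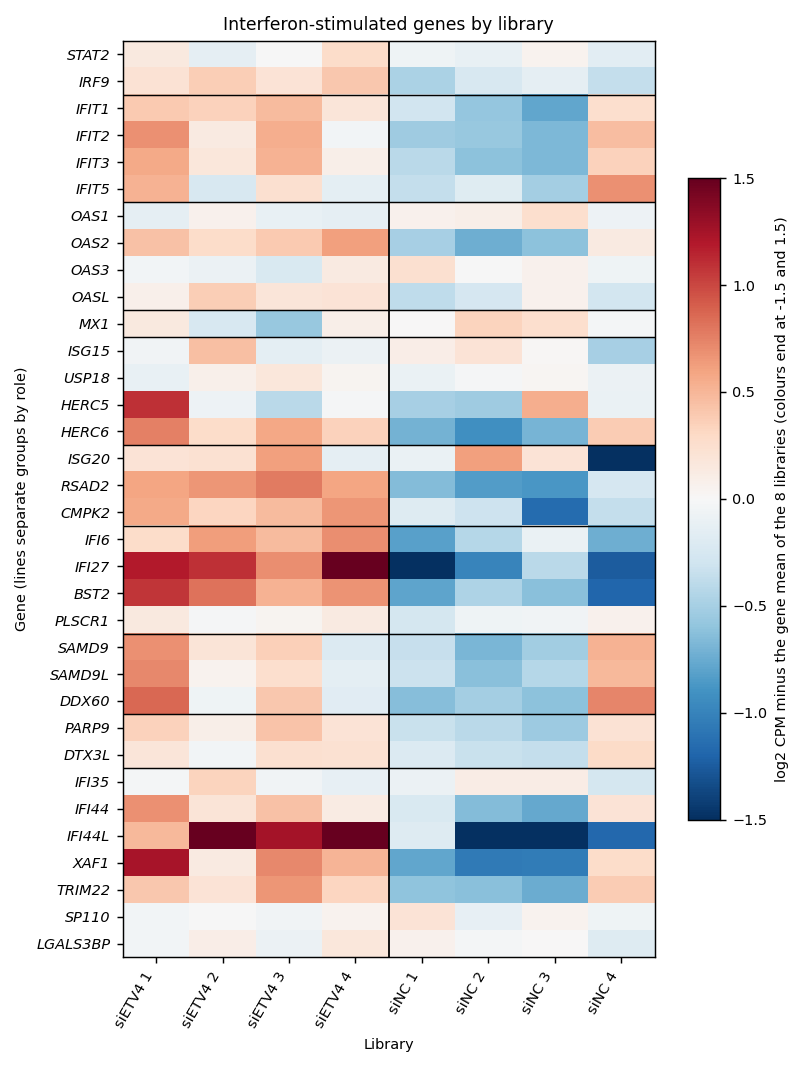
Log2 CPM of each tested gene minus its mean over the 8 libraries (colour, red above and blue below the mean), with siETV4 replicates 1 to 4 left of siNC replicates 1 to 4 and lines between groups of genes by role. IFI27, BST2, IFI6, RSAD2, CMPK2 and IRF9 are above their mean in each siETV4 library and below it in each siNC library. The IFIT genes, SAMD9, SAMD9L and DDX60 are above their mean in siNC replicate 4. Of these, IFIT2, IFIT5, SAMD9, SAMD9L and DDX60 are below it in siETV4 replicate 4, and IFIT5 and DDX60 also in siETV4 replicate 2.

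The median deviation of the 34 genes from their mean over the libraries was 0.40, 0.18, 0.38 and 0.15 in siETV4 replicates 1 to 4, on the log2 scale. In siNC replicates 1 to 4 it was -0.33, -0.42, -0.42 and -0.07. The groups did not overlap in this median, and siNC replicate 4 lay nearest to the siETV4 libraries. Over all genes tested the same median lay between -0.02 and 0.03 in each library.

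The 3 genes that rose encode small membrane proteins. IFI27, a mitochondrial and nuclear-membrane protein linked to apoptosis and to RIG-I inhibition, had 5.99, 5.64, 4.26 and 7.72 CPM in siETV4 replicates 1 to 4, against 0.659, 1.28, 1.94 and 1.07 CPM in siNC replicates 1 to 4. Every siETV4 library stood above every siNC library, and siNC replicate 3 was the highest control. The log2 fold change was 2.26 (SE 0.31, adjusted p 0.0144 by edgeR), the highest of the genes that passed. BST2, or tetherin, a membrane protein that holds budding virions at the cell surface, had 4.11, 3.45, 2.79 and 3.11 CPM in siETV4, against 1.10, 1.40, 1.23 and 0.824 CPM in siNC. These groups did not overlap either, and siNC replicate 4 was the lowest library. The log2 fold change was 1.57 (SE 0.23, edgeR adjusted p 0.0219). IFI6, an antiapoptotic protein of the same small family as IFI27, had 15.8, 20.2, 18.1 and 21.2 CPM in siETV4, against 7.37, 9.63, 12.2 and 7.82 CPM in siNC. Its groups were again separate, with siNC replicate 3 the closest to siETV4. The log2 fold change was 1.03 (SE 0.18, edgeR adjusted p 0.0472).

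These 3 calls rested on small margins when libraries were left out. IFI27 passed in 7 of the 8 runs that left out 1 library and missed the threshold when siNC replicate 2 was absent (edgeR adjusted p 0.0600). BST2 passed only without siNC replicate 4 (edgeR adjusted p 0.00630) and had adjusted p values of 0.0533 to 0.106 without each of the other 7. IFI6 passed without siNC replicates 3 and 4 (edgeR adjusted p 0.0345 and 0.00783) and had 0.0799 to 0.191 without each of the other 6. In these runs the log2 fold changes stayed between 2.04 and 2.56 for IFI27, 1.44 and 1.68 for BST2, and 0.93 and 1.19 for IFI6. PLSCR1, a membrane protein that restricts viral entry, was the fourth of this group and one of the most abundant, at 114 to 128 CPM in siETV4 and 96.1 to 121 CPM in siNC, with overlap and a log2 fold change of 0.15 (SE 0.09, edgeR adjusted p 0.511), or -0.09 with GC content and length trends removed and 0.20 without siNC replicate 4 (edgeR adjusted p 0.125).

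**Figure D3:**
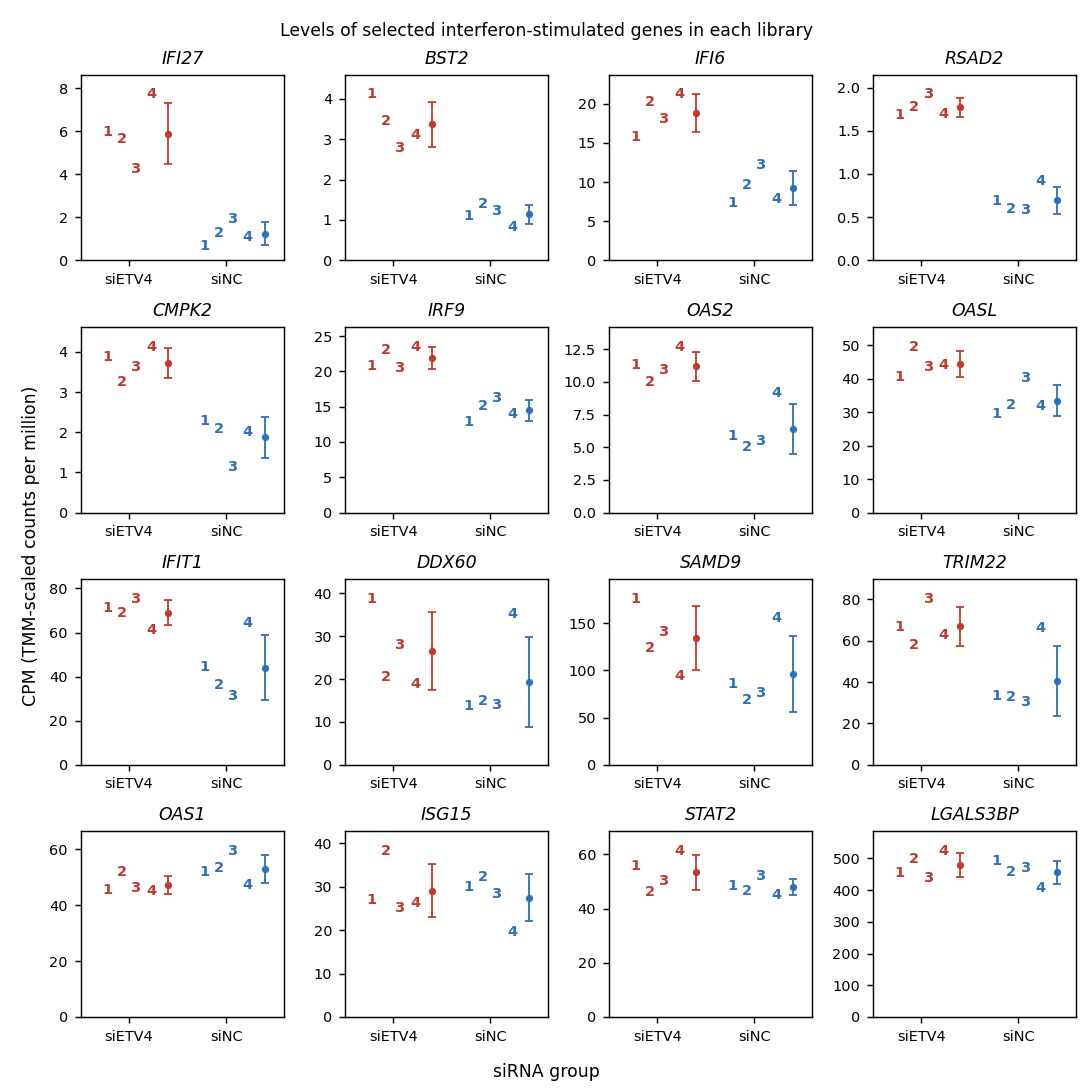
CPM of 16 genes in each library, with replicate numbers as the plotted symbols, siETV4 left (red) and siNC right (blue), and the mean ± SD of 4 libraries beside them; each axis starts at 0. In the panels from IFI27 to OASL the groups are separate; in IFIT1, DDX60, SAMD9 and TRIM22 siNC replicate 4 lies among the siETV4 libraries, and in the bottom row the groups overlap.

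Another 6 tested genes had every siETV4 library above every siNC library without passing the adjusted threshold, which makes 9 of 34 with the 3 above, against 2.62% of all genes tested. None of the 34 was separate in the opposite direction, against 3.93% of all genes. The 6 were IRF9, RSAD2, CMPK2, OAS2, OASL and IFI44L, and they come from 4 groups by role. The separation of IFI44L was favoured by the filter, since only its siETV4 libraries met the minimum count.

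Among the ISGF3 subunits, IRF9, the part that recognises DNA, had 20.8, 23.0, 20.5 and 23.5 CPM in siETV4, against 12.8, 15.1, 16.2 and 13.9 CPM in siNC. The groups were separate and the spread within each was small. This gave a log2 fold change of 0.60 (SE 0.12, edgeR adjusted p 0.103). STAT2, which carries the transactivation domain, had 55.7, 46.0, 50.2 and 61.2 CPM in siETV4 and 48.4, 46.6, 52.1 and 45.0 CPM in siNC, and the groups overlapped. Its log2 fold change was 0.15 (SE 0.11, edgeR adjusted p 0.581). The difference between the responses of IRF9 and STAT2 was not tested.

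The enzymes that act on nucleotides and RNA were low. RSAD2, or viperin, which makes a chain-terminating nucleotide, had 1.68, 1.77, 1.92 and 1.69 CPM in siETV4, against 0.683, 0.595, 0.579 and 0.920 CPM in siNC. Its groups were separate, and siNC replicate 4 was the highest control. The log2 fold change was 1.34 (SE 0.27, edgeR adjusted p 0.0835). CMPK2, a mitochondrial nucleotide kinase whose product feeds viperin, had 3.87, 3.25, 3.63 and 4.13 CPM in siETV4 and 2.27, 2.08, 1.13 and 2.01 CPM in siNC. These groups were separate too, with siNC replicate 3 the lowest. Its log2 fold change was 0.99 (SE 0.23, edgeR adjusted p 0.142). CMPK2 and RSAD2 lie on opposite strands of chromosome 2 and overlap at their ends (GRCh38, 6840553 to 6866635 and 6865885 to 6898239), and whether the counting used strand is unknown from the labels, which leaves reads from the shared stretch uncertain. ISG20, an exonuclease that degrades RNA, had 1.42, 1.45, 1.92 and 1.11 CPM in siETV4 and 1.15, 1.90, 1.43 and 0.363 CPM in siNC. It did not separate the groups, and the lowest of all its values was in siNC replicate 4 (log2 fold change 0.29, SE 0.42, edgeR adjusted p 0.772).

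Of the OAS family, which senses double-stranded RNA and activates RNase L, 0 of 4 genes passed the test. OAS2 had 11.3, 10.0, 10.9 and 12.7 CPM in siETV4, against 5.88, 4.99, 5.46 and 9.18 CPM in siNC. The groups were separate, and siNC replicate 4 was close to the lowest siETV4 library. Its log2 fold change was 0.82 (SE 0.20, edgeR adjusted p 0.154). OASL, a member without enzymatic activity that enhances RIG-I signalling, had 40.5, 49.6, 43.4 and 44.2 CPM in siETV4 and 29.4, 32.2, 40.2 and 31.8 CPM in siNC. The groups only just failed to touch, since siNC replicate 3 came close to siETV4 replicate 1 (log2 fold change 0.41, SE 0.12, edgeR adjusted p 0.262). OAS1 and OAS3, which lie beside OAS2 on chromosome 12 and are more abundant, had log2 fold changes below 0, though with the trends of each library with GC content and length removed, as described below, OAS3 came to 0.01. OAS3 had 210, 202, 183 and 236 CPM in siETV4 and 254, 214, 225 and 207 CPM in siNC, a log2 fold change of -0.11 (SE 0.10, edgeR adjusted p 0.639). OAS1 had 45.0 to 51.9 CPM in siETV4 and 47.0 to 59.3 CPM in siNC, with a log2 fold change of -0.16 (SE 0.11, edgeR adjusted p 0.521). In both the groups overlapped.

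IFI44L was barely detected. It had 11, 25, 20 and 28 counts in the siETV4 libraries and 6, 1, 0 and 2 counts in the siNC libraries. Its log2 fold change of 3.08 (SE 0.71, edgeR adjusted p 0.138) depends on how counts near 0 are treated, and it was 0.11 on the log2(FPKM + 1) scale with no filter. IFI44, the neighbour 3643 bases away on chromosome 1 and a related protein, was well expressed at 34.0, 24.1, 28.6 and 22.9 CPM in siETV4 and 18.0, 13.4, 12.4 and 24.3 CPM in siNC. The groups overlapped through siNC replicate 4 (log2 fold change 0.69, SE 0.21, edgeR adjusted p 0.272, and 0.91 at an adjusted p of 0.00882 without that library). MX2, a GTPase that blocks nuclear import of retroviral capsids, had 4, 2, 3 and 5 counts in siETV4 and 0, 0, 0 and 2 counts in siNC, too few for a test. MX1, the GTPase active against influenza virus, had 2.02, 1.53, 1.20 and 1.93 CPM in siETV4 and 1.83, 2.29, 2.17 and 1.77 CPM in siNC. The groups overlapped (log2 fold change -0.27, SE 0.24, edgeR adjusted p 0.643).

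**Figure D4:**
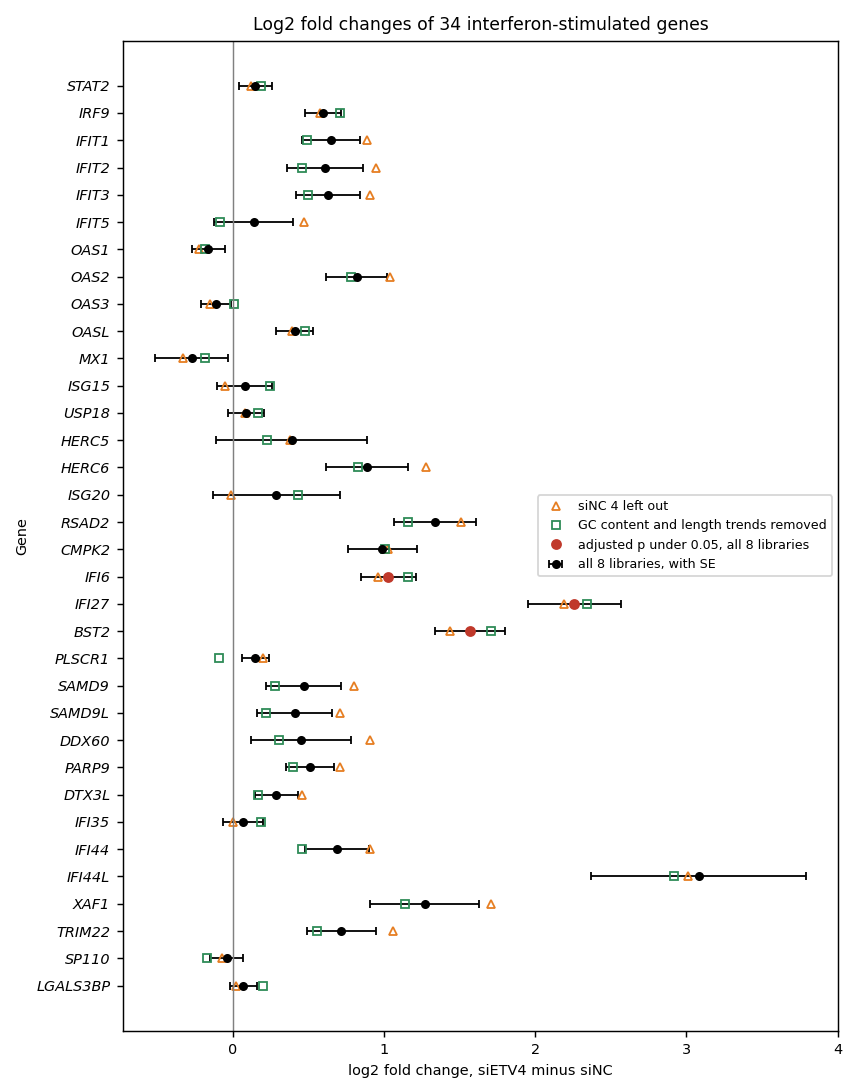
Log2 fold changes (siETV4 minus siNC) of the 34 tested genes, with 1 SE, from all 8 libraries (circles, red where the adjusted p was under 0.05), without siNC replicate 4 (triangles) and after removal of each library's GC content and length trends (squares). IFI27, BST2 and IFI6 lie at 2.19 to 2.34, 1.44 to 1.71 and 0.96 to 1.16 over the 3 fits, while the IFIT genes, SAMD9, SAMD9L, DDX60 and TRIM22 move to higher values without siNC replicate 4 and to lower values with the trends removed.

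In a further 13 genes, PLSCR1 among them, the siETV4 libraries were all above siNC replicates 1 to 3, and siNC replicate 4 lay among or above the siETV4 libraries. Over all genes tested, 15.8% had every siETV4 library above siNC replicates 1 to 3, and 75.9% had siNC replicate 4 at or above the lowest siETV4 library. Each share covers 1 condition alone, and the count that matches the 15.8% is 22 of the 34. The share of all genes that met both conditions was not computed, so the count of 13 is not a result about these genes. The IFIT genes, a cluster on chromosome 10 whose proteins bind the ends of foreign RNA, show this clearly. IFIT1 had 71.1, 68.9, 75.3 and 61.2 CPM in siETV4, against 44.4, 36.1 and 31.4 CPM in siNC replicates 1 to 3, with 64.4 CPM in siNC replicate 4. IFIT2 had 88.7, 60.1, 79.9 and 53.3 CPM in siETV4, against 38.0, 37.0 and 34.5 CPM in siNC replicates 1 to 3, with 75.8 CPM in siNC replicate 4. IFIT3 had 94.8, 72.2, 91.5 and 67.9 CPM in siETV4, against 48.1, 41.8 and 40.2 CPM in siNC replicates 1 to 3, with 81.1 CPM in siNC replicate 4. In all 3, siNC replicate 4 fell within the range of the siETV4 libraries. Their log2 fold changes were 0.65 (SE 0.19), 0.61 (SE 0.25) and 0.63 (SE 0.21), with edgeR adjusted p values of 0.258, 0.378 and 0.301. Without siNC replicate 4 they were 0.89, 0.95 and 0.91 (edgeR adjusted p 0.00333, 0.00601 and 0.00333). IFIT5 had 30.9, 18.2, 25.4 and 19.4 CPM in siETV4 and 16.7, 18.9, 15.1 and 34.4 CPM in siNC, where replicate 4 was the highest of all 8 libraries (log2 fold change 0.14, SE 0.26, edgeR adjusted p 0.83, -0.08 with those trends removed, and 0.47 without siNC replicate 4 at an edgeR adjusted p of 0.0779). IFIT1, IFIT2 and IFIT3 overlap the gene LIPA on the other strand in GENCODE v29. LIPA had a log2 fold change of 0.16 (SE 0.11, edgeR adjusted p 0.564).

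SAMD9 and SAMD9L, neighbouring antiviral genes on chromosome 7 whose proteins restrain translation, also had siNC replicate 4 within the range of the siETV4 libraries. SAMD9 had 176, 124, 141 and 94.4 CPM in siETV4, against 85.7, 68.4 and 76.0 CPM in siNC replicates 1 to 3, with 156 CPM in siNC replicate 4. SAMD9L had 35.7, 22.4, 25.7 and 19.5 CPM in siETV4, against 17.3, 13.9 and 16.0 CPM in siNC replicates 1 to 3, with 30.3 CPM in siNC replicate 4. Replicates 1 and 3 of siETV4 and replicate 4 of siNC were the 3 highest libraries for both. DDX60, a helicase-like protein that promotes RIG-I signalling, had 38.7, 20.4, 28.0 and 18.9 CPM in siETV4, against 13.6, 14.9 and 13.9 CPM in siNC replicates 1 to 3, with 35.2 CPM in siNC replicate 4. The log2 fold changes of these 3 genes were 0.47 (SE 0.25), 0.41 (SE 0.25) and 0.45 (SE 0.33), and the edgeR adjusted p values were 0.460 to 0.566. Without siNC replicate 4 they were 0.80, 0.71 and 0.91 (edgeR adjusted p 0.0122, 0.0234 and 0.0169).

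PARP9 and DTX3L encode partners in an ADP-ribosylation and ubiquitination complex and are transcribed in opposite directions from chromosome 3, with overlapping ends. PARP9 had 78.9, 65.7, 83.3 and 71.3 CPM in siETV4, against 49.1, 46.4, 42.2 and 72.3 CPM in siNC, a log2 fold change of 0.51 (SE 0.16, edgeR adjusted p 0.276). DTX3L had 150, 129, 157 and 156 CPM in siETV4 and 114, 106, 103 and 162 CPM in siNC, a log2 fold change of 0.29 (SE 0.14, edgeR adjusted p 0.424). Of the siNC libraries only replicate 4 was not below all siETV4 libraries, within their range for PARP9 and above it for DTX3L. Without it the log2 fold changes were 0.71 and 0.46 (edgeR adjusted p 0.00521 and 0.0116). TRIM22, a ubiquitin ligase that restricts several viruses, had 66.8, 58.2, 80.3 and 63.0 CPM in siETV4, against 33.5, 32.7, 30.3 and 66.1 CPM in siNC. Its lowest siETV4 library was well above siNC replicates 1 to 3 and below siNC replicate 4 (log2 fold change 0.72, SE 0.23, edgeR adjusted p 0.277). XAF1, which antagonises the caspase inhibitor XIAP, had 3.99, 1.85, 2.77 and 2.39 CPM in siETV4 and 0.951, 0.773, 0.780 and 2.03 CPM in siNC, a log2 fold change of 1.27 (SE 0.36, edgeR adjusted p 0.234). Without siNC replicate 4 the log2 fold changes were 1.06 for TRIM22 and 1.71 for XAF1 (edgeR adjusted p 0.000611 and 0.00866).

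None of the 4 genes of the ISG15 system passed the test. HERC6, a HECT ligase related to the human ISG15 ligase HERC5, had 16.1, 11.4, 14.2 and 12.0 CPM in siETV4, against 5.78, 4.97, 5.82 and 12.3 CPM in siNC, with overlap through siNC replicate 4 (log2 fold change 0.89, SE 0.27, edgeR adjusted p 0.262, and 1.28 at an adjusted p of 0.00138 without that library). HERC5 itself was near the detection limit, with 35, 14, 11 and 15 counts in siETV4 and 10, 8, 22 and 14 counts in siNC. The modifier ISG15 had 26.9, 38.2, 25.2 and 26.2 CPM in siETV4 and 29.9, 32.2, 28.3 and 19.6 CPM in siNC. The groups overlapped widely (log2 fold change 0.08, SE 0.18, edgeR adjusted p 0.852). USP18, the protease that removes ISG15 and damps the receptor, had 9.74, 11.2, 11.8 and 10.9 CPM in siETV4 and 9.81, 10.4, 10.8 and 9.93 CPM in siNC. Its log2 fold change was 0.09 (SE 0.12, edgeR adjusted p 0.762).

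The remaining genes were close to 0. IFI35, a partner of NMI, had a log2 fold change of 0.07 (SE 0.13), SP110, a nuclear body protein, of -0.04 (SE 0.11) and LGALS3BP of 0.07 (SE 0.09), and in all 3 the groups overlapped (edgeR adjusted p 0.752 to 0.903). LGALS3BP had 455, 499, 439 and 523 CPM in siETV4 and 491, 456, 471 and 407 CPM in siNC, so the most abundant gene of the list was among those with the smallest difference and SE.

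The position of siNC replicate 4 went with GC content. It was at or above the lowest siETV4 library in 19 of the 34 genes, against 75.9% of all genes, and the highest siNC library in 16, against 37.1%. Among the 34 genes the GC content of the longest transcript was 36.0 to 63.4%, with a median of 45.3% against 48.3% over the tested genes that had a value. The difference between siNC replicate 4 and the mean of siNC replicates 1 to 3 correlated with GC content at Spearman's rho -0.80 over the 34 genes and -0.71 over 12765 genes; these share the libraries and are given as descriptions. A boundary of 45% GC, chosen after the values were seen, left 17 genes on each side. The 17 genes under it had a median difference of 0.80 (log2) between siNC replicate 4 and siNC replicates 1 to 3, against 0.60 for all genes of that GC content. Their siETV4 libraries differed from siNC replicates 1 to 3 by a median of 0.84, against 0.36 for all such genes. The 17 genes of higher GC content had a median of -0.16 in siNC replicate 4, against -0.20 for all such genes, and of 0.11 in siETV4, against -0.15. IFI27, BST2, IFI6 and IRF9 have 50.5, 57.3, 56.1 and 55.4% GC, and in each of them siNC replicate 4 was at or below the mean of the other siNC libraries. SAMD9, IFIT5, DDX60 and IFI44 have 36.0, 37.4, 39.1 and 39.1% GC, and in each siNC replicate 4 was the highest siNC library. It was not the highest for IFI44L (37.8% GC), and it was the highest for HERC6 and OAS2 (46.3 and 47.0% GC), by 1.16 and 0.75 (log2) over the mean of the others.

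**Figure D5:**
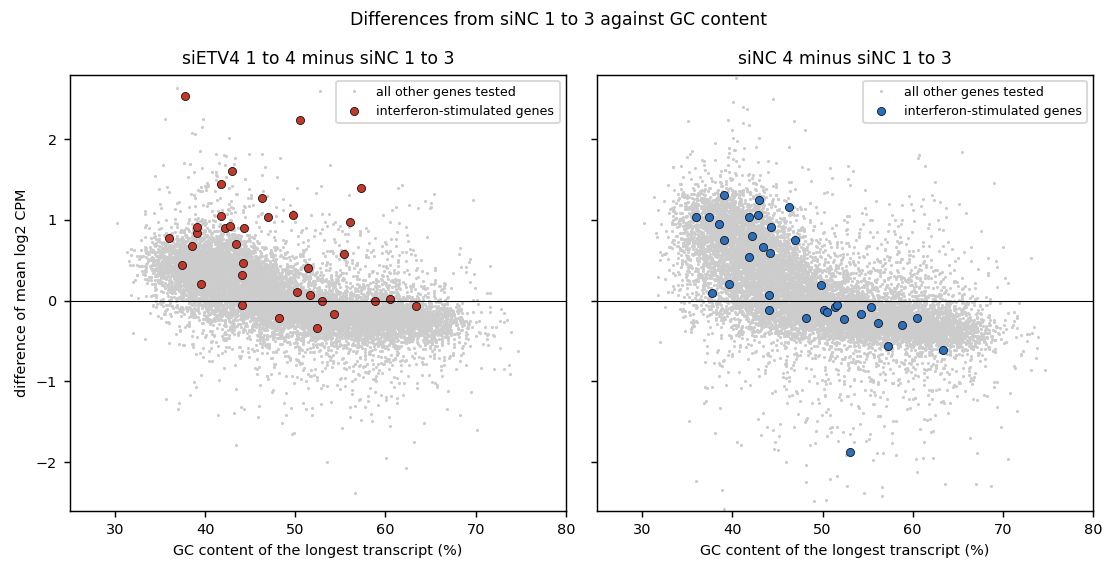
Difference of mean log2 CPM from siNC replicates 1 to 3 (vertical axis) against the GC content of the longest transcript (horizontal axis), for siETV4 replicates 1 to 4 (left) and siNC replicate 4 (right); grey points are all other tested genes, a few of which lie beyond the axes. In siNC replicate 4 most interferon-stimulated genes lie within the grey band, with ISG20 at -1.87 below it, whereas in siETV4 IFI27 and BST2 lie far above genes of similar GC content (differences of 2.24 and 1.39).

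Leaving out siNC replicate 4 changed the count of calls. Without it, 21 of the 34 genes rose and 0 fell (edgeR adjusted p under 0.05), while 12.0% of all genes tested were called higher and 4.88% lower. The 18 genes added were IRF9, IFIT1, IFIT2, IFIT3, OAS2, OASL, HERC6, RSAD2, CMPK2, SAMD9, SAMD9L, DDX60, PARP9, DTX3L, IFI44, IFI44L, XAF1 and TRIM22. TRIM22 had the smallest adjusted p of them (edgeR, 0.000611, log2 fold change 1.06). IFI44L again entered the test through its siETV4 libraries alone. In this comparison 22 of the 34 genes had every siETV4 library above siNC replicates 1 to 3, against 15.8% of all genes. The median log2 fold change was then 0.71, and that of all genes -0.02. The libraries kept had rho with GC content of 0.52 to 0.63 in siNC and -0.64 to 0.20 in siETV4. The difference of siETV4 from siNC replicates 1 to 3 correlated with GC content at Spearman's rho -0.67 over the genes with a value and -0.38 over the 34. In this comparison the siRNA and the GC content trend therefore cannot be told apart.

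With the trends of each library with GC content and gene length removed by splines and all 8 libraries kept, 10 of the 34 rose and 0 fell (edgeR adjusted p under 0.05), and 0.846% of all genes were called higher and 0.87% lower. These were IFI27, BST2, IFI6, IRF9, RSAD2, CMPK2, OAS2, OASL, IFIT1 and PARP9. IFI6 had the smallest adjusted p (edgeR, 0.000941, log2 fold change 1.16), then IFI27 (0.00112, log2 fold change 2.34), BST2 (0.00188, log2 fold change 1.71) and IRF9 (0.00374, log2 fold change 0.71). IFIT2, SAMD9 and DDX60 did not pass there (edgeR adjusted p 0.198, 0.189 and 0.372). With the trends removed and siNC replicate 4 left out, 18 rose and 0 fell, and 2.97% of all genes were called higher and 3.35% lower. DESeq2 on all 8 libraries called 9 of the genes higher and 0 lower. These were IFI27, BST2, IFI6, IRF9, RSAD2, CMPK2, OAS2, IFI44L and XAF1. Of the 20577 genes to which it gave a p-value, 0.467% were higher and 0.345% lower. Some of those genes, MX2 among them, had no adjusted p and could not be called, so these shares are low estimates.

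Other genes of the pathway, listed by name and also chosen with earlier results of these data known, gave 0 calls with all 8 libraries (edgeR). The log2 fold change was above 0 for 7 of 14 signalling genes (median 0.00). The most abundant were IRF1, a factor induced by interferon-gamma, at 49.7 FPKM in siETV4 and 57.4 FPKM in siNC (log2 fold change -0.25, SE 0.08, edgeR adjusted p 0.262), and IRF3, which acts downstream of nucleic acid sensors, at 52.9 FPKM in siETV4 and 52.2 FPKM in siNC (log2 fold change -0.03, SE 0.11). Without siNC replicate 4, IRF1 fell (edgeR adjusted p 0.0263). Among 40 other interferon-induced genes the log2 fold change was above 0 for 25 (median 0.13). Their most abundant were IFITM3, which blocks viral fusion, at 547 FPKM in siETV4 and 531 FPKM in siNC (log2 fold change -0.00, SE 0.10), and LY6E at 331 FPKM in siETV4 and 371 FPKM in siNC (log2 fold change -0.21, SE 0.12). LY6E fell without siNC replicate 4 (edgeR adjusted p 0.0456). Over the 14 and 40 genes, 3 and 13 were called higher and 1 and 2 lower without siNC replicate 4, beside 12.0% and 4.88% of all genes. After removal of the trends with GC content and length 1 was called, the guanylate-binding protein gene GBP1 (log2 fold change 0.73, edgeR adjusted p 0.0389). At an unadjusted p under 0.05 with all 8 libraries, 2 of the 14 were higher and 1 lower, and 6 of the 40 were higher and 1 lower, beside 5.8% and 6.79% of all genes. RTP4, a chaperone of receptor trafficking, and GBP1 had log2 fold changes of 0.72 (SE 0.19) and 0.89 (SE 0.23), with edgeR adjusted p values of 0.198 and 0.195. DESeq2 called these 2 genes higher and none of the 14.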

How the data were processed

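RNA of 8 HaCaT cultures was sequenced, and the deposited table holds counts and FPKM per gene and library; columns were matched to samples by their names. Per the submitters' processing notes the genome build was hg38 and R 3.2.0 was used; the aligner and counting program, like its use of strand, were not given in the sources used here. The authors' deposited counts are whole numbers, and the deposited FPKM equal count over gene length and library total (tolerance 1e-06) for all but 1 of the symbols checked. From the counts, edgeR 4.0.16 (R 4.3.3) fitted a quasi-likelihood model with the siRNA as the only term, TMM factors and filterByExpr (minimum count 10), over all genes, with a threshold of 0.05 on Benjamini-Hochberg adjusted p. Log2 fold changes are those of the fit, siETV4 minus siNC, and a prior count of 2 was used only for the log2 CPM of each library. At the mean depth, 1 CPM is 40.1 counts. Alternatives used limma 3.58.1 (voom on counts, trend on log2 FPKM), DESeq2 1.42.0, other scalings and filters, libraries left out, and offsets from splines with 5 degrees of freedom on GC content and length, available for 12765 of 13572 genes (94.1%). The procedure was tested on simulated counts without library trends in GC content or length, so that test does not cover such trends. The 35 genes, the other lists and the siNC replicate 4 alternative were chosen with earlier results of these data known, so no p-value was adjusted over a list alone and no set test was made. Genes were given by library where they passed, and otherwise the 2 of smallest p and the most abundant of each group by role, with others added where their libraries differed. Near-identical or overlapping genes are uncertain where counting could split their reads. A result for 1 signalling gene is not reported here.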

Additional observations from a re-analysis of the deposited data

Results flagged for a closer look

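Single libraries far from the other 3 of their group, by Dixon's test at 95%, were found in 10 of the 70 groups of 4 examined. The nominal rate of 1 in 20 holds for independent groups, whereas these share the same 8 libraries. The rate over all genes was not computed, so the count is not a result about these genes. The high library was siNC replicate 4 in 6 of them. IFIT2 had 75.8 CPM there, against 34.5 to 38.0 CPM in the other siNC libraries. HERC6 had 12.3 CPM, against 4.97 to 5.82 CPM in the others. TRIM22 had 66.1 CPM, against 30.3 to 33.5 CPM. DDX60 had 35.2 CPM, against 13.6 to 14.9 CPM, and XAF1 had 2.03 CPM, against 0.773 to 0.951 CPM. MX2 had 0.0484 CPM, which is 2 counts, and no count in the other siNC libraries. These values set the overlap of the groups for IFIT2, HERC6, TRIM22, DDX60 and XAF1.

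In 3 others the high library was siETV4 replicate 2. ISG15 had 38.2 CPM there, against 25.2 to 26.9 CPM in the other siETV4 libraries, OAS1 had 51.9 CPM, against 45.0 to 46.1 CPM, and IFI35 had 69.0 CPM, against 50.3 to 53.4 CPM. HERC5 had 0.841 CPM in siETV4 replicate 1, against 0.265 to 0.362 CPM in the others, at 35 counts. The part of GC content in these values was not tested gene by gene.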

How the results depend on the processing

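The 3 genes past the threshold became 0 to 21 when 1 library was left out, 10 with GC content and length offsets, 18 with these offsets and without siNC replicate 4, 9 with DESeq2 and 0 at an adjusted p under 0.01. Their median log2 fold change of 0.46 lay between 0.38 and 0.71 with 1 library left out. Calls over all genes, 32 with all libraries, were 9 to 2327 with 1 library left out, 54 with no filter, 219 with the offsets, 815 with the offsets and without siNC replicate 4, 167 with DESeq2, 59 with log2 FPKM filtered at a mean of 0.5 (either pseudocount), and 9 and 60 at adjusted p under 0.01 and 0.1. Calls among the other interferon genes, 0 with all libraries, were 0 to 19 with 1 left out, 1 with the offsets, 8 with the offsets and without siNC replicate 4, and 2 with DESeq2. The 2327 calls and the 21 came without siNC replicate 4; the cause was not tested. RLE factors, library size alone, voom and the robust fit each gave 3 of the genes.

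Fold changes near 0 changed sign. IFIT5 came to -0.08 and -0.07, OAS3 to 0.01 and 0.01, and PLSCR1 to -0.09 and -0.09 with the offsets alone and with the replicate block added, and PLSCR1 to -0.16 with the offsets and without siNC replicate 4. SP110 came to 0.01 with library size alone and with each FPKM setting. With 1 library left out the ranges were -0.09 to 0.72 for HERC5, -0.04 to 0.12 for IFI35, -0.02 to 0.47 for IFIT5, -0.07 to 0.17 for ISG15, -0.01 to 0.59 for ISG20 and -0.08 to 0.03 for SP110.

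With the replicate number as a block, 0 of the genes and 4 of all genes passed, and 5 and 100 with block and offsets together. The numbers were not taken to pair the cultures, since the labels call these independent biological replicates. Deviations of same-numbered libraries correlated at -0.09, 0.30, -0.14 and -0.19, and siNC replicate 4 correlated best with siETV4 replicate 1 (0.39). Such correlations over all genes also carry the library trends with GC content, so they cannot decide whether the numbers pair cultures. Depth limits MX2, IFI44L and HERC5.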
